A study of Mus musculus with 27 samples.

Results

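The genes described here encode the proteins of the cytosolic ribosome. They were taken as every gene with a probe set annotated to a single symbol made of Rpl or Rps plus a number (with at most a, x or l behind it), or to Rpsa. A gene with several such probe sets was read from the brightest of them, by its mean over all arrays. This gave 50 of the 19301 genes with a single-symbol probe set: 26 of the large subunit, 18 of the small subunit and 6 paralogs whose symbols end in l. A list of 80 core ribosomal protein genes found 44 of its members here. Another 23, among them Rplp0 and Rps19, were represented only by probe sets shared by several symbols, 12 matched no probe set by symbol, and Fau fell outside the naming rule.

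The ribosome is built from a large and a small subunit, each a scaffold of ribosomal RNA dressed with proteins. The small subunit reads the messenger RNA, and the large one joins the amino acids and passes the new chain out through a tunnel. The proteins are needed in about equal amounts, and their messages are among the most abundant in nearly every cell, photoreceptors and retinal neurons included. Many of these messages start with a C followed by a run of pyrimidines, the terminal oligopyrimidine tract, through which the mTOR pathway and the RNA-binding protein Larp1 control their translation.

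The arrays held amplified RNA of 200 cells each, sorted by fluorescence from papain-dissociated adult mouse retina, in 9 groups of 3 arrays. Cones, the daylight photoreceptors, carried EGFP from the Tg(Chrnb4-EGFP)1Gsat transgene. Starburst amacrine cells, which release acetylcholine and GABA onto direction-selective ganglion cells, carried RFP through 129S6-Chat_tm1(cre)Lowl/J crossed with Rosa26-LSL-RFP. A titration ran from 200 starburst cells without cones through 150 with 50 cones, 100 with 100 and 50 with 150 to 200 cones without starburst cells. In 3 further mixtures, called X, 43 starburst cells were sorted with 157 cones, 125 with 75 and 17 with 183. The last group held amacrine cells of Tg(Arc-EGFP)194Gsat/Mmcd mice and served the submitters as a control between batches. The labels give a mixed background, C57BL/6J with FVB/N-Swiss Webster hybrid, and none of the mice was treated. Mice of the EGFP lines descend from stock with a recessive mutation causing photoreceptor degeneration and were used as F2 after a cross to C57BL/6J. Each sort pooled 2 retinas from cone reporter mice with 6 from starburst reporter mice, and the sorts were done on 3 sets of mice. Cell type and mouse line cannot be told apart in this design, and each type is marked by 1 transgene or driver. The study asks whether amplified signal stays linear with the amount of RNA.

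To show the start regions of members on which the results below turn, 60 bases before and 20 bases from the annotated start are given 5′ to 3′ on the gene's strand, from RefSeq's promoter table of GRCm38.p6. The first 6 genes differed between cell types, and the last pair, Rps7 and Rps4x, had the smallest spread between replicate arrays. Capitals mark a pyrimidine run that starts at the annotated first base with C and at least 4 more pyrimidines, or the letters CCGGAAG on either strand, the core bound by ETS family factors.
Rpl14 (chr9:120571457-120571536, + strand): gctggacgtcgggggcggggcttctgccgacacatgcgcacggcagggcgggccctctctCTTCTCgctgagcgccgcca
Rpl28 (chr7:4792905-4792984, + strand): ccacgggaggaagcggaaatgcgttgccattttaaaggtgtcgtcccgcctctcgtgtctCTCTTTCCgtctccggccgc
Rpl6 (chr5:121204441-121204520, + strand): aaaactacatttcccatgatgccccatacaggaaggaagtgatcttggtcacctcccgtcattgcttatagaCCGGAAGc
Rpl4 (chr9:64173327-64173406, + strand): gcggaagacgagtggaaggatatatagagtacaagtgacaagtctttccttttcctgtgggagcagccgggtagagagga
Rpsa (chr9:120127706-120127785, + strand): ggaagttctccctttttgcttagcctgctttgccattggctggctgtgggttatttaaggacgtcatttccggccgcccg
Rps18 (chr17:33955646-33955725, - strand): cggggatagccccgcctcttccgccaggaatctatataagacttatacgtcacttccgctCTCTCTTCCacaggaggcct
Rps7 (chr12:28635934-28636013, - strand): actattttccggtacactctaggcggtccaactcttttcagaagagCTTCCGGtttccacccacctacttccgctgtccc
Rps4x (chrX:102189372-102189451, - strand): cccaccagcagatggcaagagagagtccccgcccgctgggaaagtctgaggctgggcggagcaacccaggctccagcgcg

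The table held a promoter, from 250 bases before to 50 after the start, for 40 of the 50 genes, 37 of them among those tested below. A start led by C and 4 more pyrimidines occurred in 8 of the 37 (21.62%), against 2.49% of the 27025 promoters in the table. The letters CCGGAAG, searched on both strands like the other motifs, occurred in 15 (40.54%) against 9.12% of all promoters. CTTTCC, a short pyrimidine stretch, was present in 17 (45.95%) against 26.31%. AAGATGG, the core bound by Yy1, stood in 2 (5.41%) against 6.48%, and the TATA box letters TATAAA in 4 (10.81%) against 14.16%. These are matches of letters around annotated starts, which can lie some bases from the start in use. Rpl14 and Rps18 both start with the tract, while Rpl4 and Rps7 do not by this annotation.

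The deposited values are log2 signals of the robust multi-array average (RMA), with array medians from 2.78 to 2.89 and no pair of identical arrays. Replicate arrays correlated at 0.919 to 0.973 over the tested genes. Genes were tested if they exceeded 2.83, the median of all values, on at least 3 arrays, which 12441 genes and 47 of the 50 ribosomal protein genes did. Marker lists fitted the labels in outline: the mean of 11 cone markers was 7.68 to 9.19 on the pure cone arrays, 3.27 to 4.35 on the starburst and 3.07 to 3.83 on the Arc arrays. The mean of 10 starburst markers was 5.62 to 5.68 on the starburst arrays, 2.88 to 3.14 on the cone and 2.61 to 2.84 on the Arc arrays. The mean of 11 amacrine markers was 5.31 to 5.38 on the Arc and 5.11 to 5.29 on the starburst arrays, against 3.46 to 3.83 on the cone arrays, although 8 of the 11 exceeded 2.83 on Arc and cone arrays alike. Rod markers were present throughout, with a mean of 5.63 to 6.20 in starburst, 6.63 to 7.80 in cone and 4.91 to 5.34 in Arc arrays. The third pure cone array stood apart, with the lowest cone mean (7.68 against 9.19 and 9.11) and the highest rod mean (7.80 against 6.80 and 6.63). The third arrays of the mixtures 150:50, 50:150, 43:157, 125:75 and 17:183 were likewise lowest in their groups for cone markers and highest for rod markers. Their cone means were 7.32, 7.08, 6.14, 4.96 and 7.27. The first and the second 150:50 array were at 7.60 and 7.50. Results that rest on these arrays are therefore given with and without them. The part of rod RNA in the results was not tested.

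Ribosomal protein genes gave some of the brightest signals on the arrays. Their group means spanned a median of 0.488 on the log2 scale over the 9 groups, against 0.658 for all tested genes. Even so, the F test given below found a difference in 16 of the 47 tested members, beside 17.5% of all tested genes. Rps14 had the highest mean, 11.40, and lay between 11.10 and 11.60 on the 27 arrays. Rps7 followed at 11.10 and Rpl6 at 10.62. Rps6, the small subunit protein phosphorylated by S6 kinase, averaged 10.58. All 47 tested members were above the filter on each of the 27 arrays. Of the 50 genes with the highest mean signal, 13 were members. A probe set's signal depends on its probes as well as on the RNA, so this order is one of signals and not of transcript number.

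**Figure D1:**
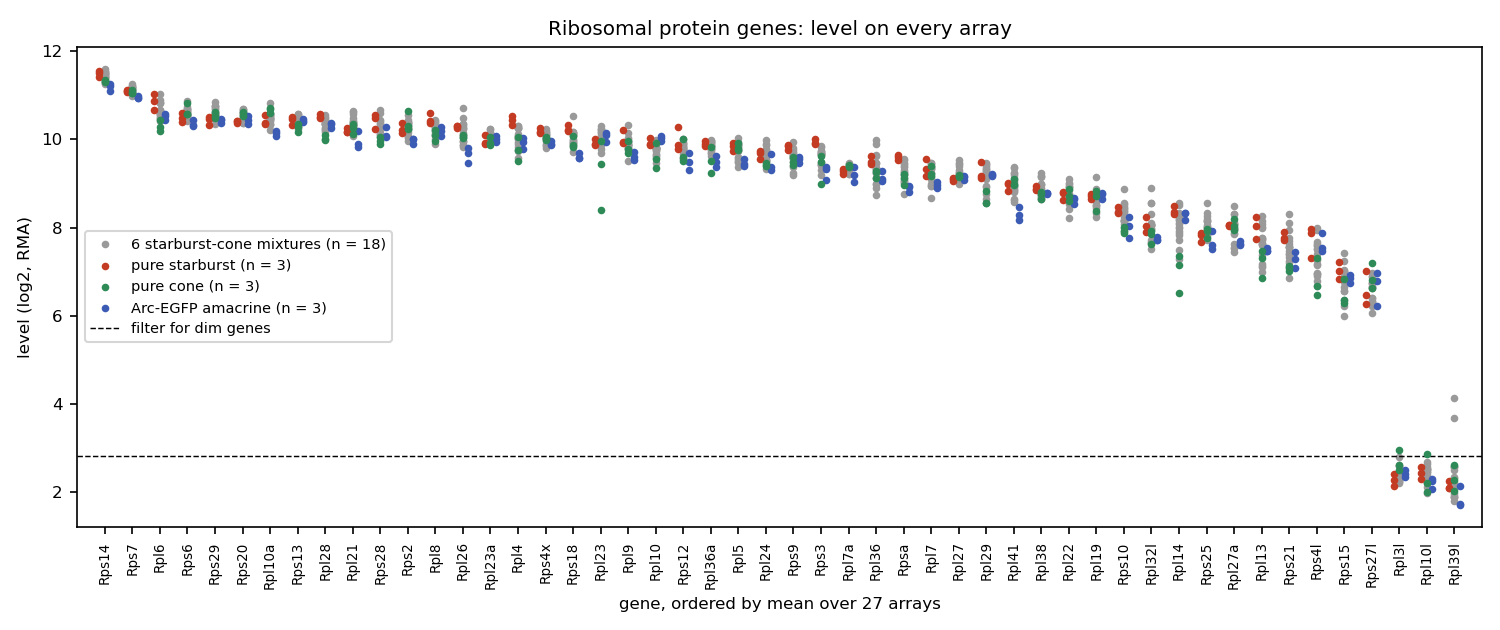
Each dot is one gene's log2 RMA value (vertical axis) on one of 27 arrays, with the 50 ribosomal protein genes ordered by mean along the horizontal axis; colours mark pure starburst, pure cone, Arc and mixture arrays, and the dashed line is the filter at 2.83. The series falls from Rps14 at a mean of 11.40 to Rps27l at 6.60, and Rpl3l, Rpl10l and Rpl39l lie at the bottom with means of 2.44, 2.37 and 2.28.

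The paralogs separated into measured and dim genes. Rpl3l, known from striated muscle, had a mean of 2.44 and exceeded the filter on 1 array. Rpl10l, known from the testis, had a mean of 2.37 and also exceeded it on 1 array. Rpl39l, a further testis paralog, had a mean of 2.28 but reached 4.13 on the second 43:157 array and 3.68 on the first 50:150 array. The remaining arrays of Rpl39l lay at 2.62 or below, so that no group had all its arrays above the filter. These genes were not tested. Rpl32l averaged 8.0, Rps4l, annotated by RefSeq as a transcribed pseudogene, 7.34, and Rps27l, a paralog of Rps27 known as a p53 target, 6.60. Signals of such copies can include RNA of their parent genes where probes match both, which was not tested.

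The spread between replicate arrays was small. The median SD within groups (18 residual degrees of freedom) was 0.145 for the 47 tested members against 0.282 for all tested genes, and 42 of the 47 lay below that overall median. Rps7 (0.0502), Rps4x (0.0642) and Rpl28 (0.0669) had the 3 lowest SDs of all 12441 tested genes. Among genes with a mean of at least 9, the median SD was 0.131 for 33 members and 0.223 for 156 other genes. The largest SDs among members belonged to Rps27l (0.315), Rps4l (0.303) and Rpl32l (0.300), all of them paralogs with lower signal.

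**Figure D2:**
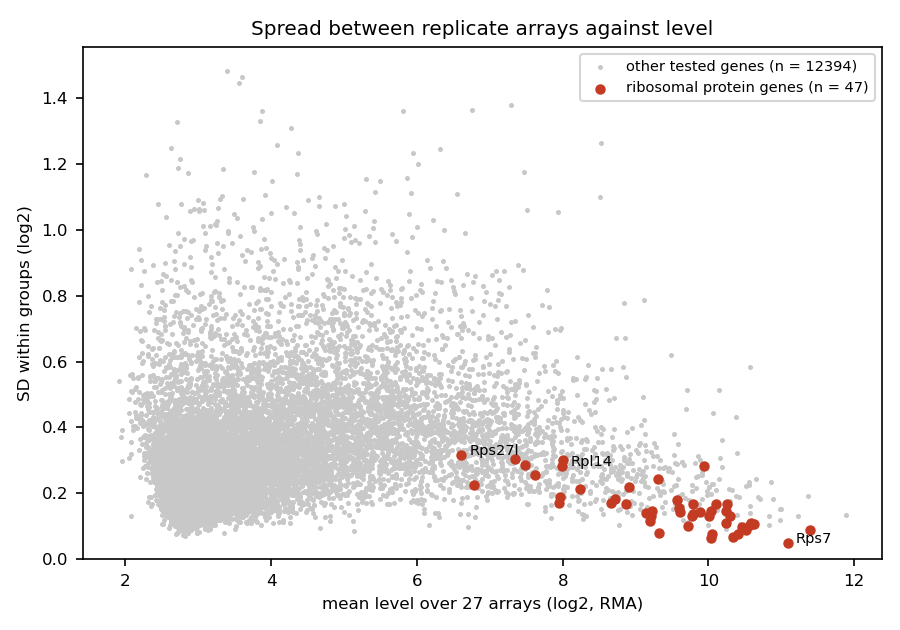
SD within groups (vertical axis, log2) against the mean over 27 arrays (horizontal axis, log2 RMA) for the other tested genes in grey and 47 ribosomal protein genes in red. The red points sit along the lower edge of the bright side of the cloud, with Rps7 lowest at 0.0502 and Rps27l highest at 0.315.

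Rps7, a small subunit protein that also binds Mdm2, shows this steadiness array by array. It measured 11.10, 11.12 and 11.06 in starburst cells, 11.11, 11.05 and 11.05 in cones, and 10.93, 10.97 and 10.94 in Arc cells. The cone and starburst ranges overlapped and the Arc arrays lay just below both. The cone minus starburst difference was -0.02 ± 0.09 (SE), with a 95% interval from -0.21 to 0.17. The Arc minus starburst difference was -0.15 ± 0.09, from -0.34 to 0.04, and did not pass the test.

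Over all 9 groups, the F test of limma found a difference in 16 of the 47 members at an adjusted p under 0.05, beside 17.5% of all tested genes. The median range of group means was 0.488 for members and 0.658 for all tested genes, on the log2 scale. By adjusted p of the F test the first were Rpl14 (range 1.38), Rpl29 (0.73), Rpl4 (0.69) and Rpl6 (0.60), 4 large subunit genes, while Rps4l (0.94), Rpl13 (0.92) and Rps15 (0.85) had wider ranges than the last 3 of these. In 7 of the 16 the pure starburst group was highest, and the lowest group was Arc in 6, pure cones in 5 and the 43:157 mixture in 5. Without the third array of every group, the test called 1 member. That fit has fewer arrays per group and so less power, and its share of all tested genes was not counted.

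The first comparison asks whether the normalized signals of ribosomal protein genes differ between cones and starburst cells. RMA values place a gene relative to the others on its array, so amounts per cell were not measured here or below. By adjusted p 12 of 47 members were lower in cones, most of them by small amounts, and Rpl14, a large subunit protein, was the one member called at an adjusted p under 0.05 and a log2 difference of at least 1. Over all tested genes 8.42% were called (both directions). By adjusted p alone 12 members were lower in cones and none was higher, beside 9.69% lower and 4.4% higher of all tested genes. An unadjusted p under 0.05 was reached by 19 lower and 1 higher. The share of all tested genes was not counted for that threshold. The member median was -0.22, against -0.04 over all tested genes. Negative differences were found in 35 of 47 members, beside 6783 of the 12441 tested genes. Cone arrays lay wholly below starburst arrays for 21 members, beside 17.9% of all tested genes, and wholly above for 4, beside 11%.

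Rpl14 measured 8.48, 8.35 and 8.30 on the starburst arrays and 7.36, 7.15 and 6.51 on the cone arrays. The groups did not overlap, and the third cone array, the one with low cone and high rod markers, was the lowest. The difference was -1.38 ± 0.23 (adjusted p = 1.81e-04), a signal 2.59 times higher in starburst cells. It passed both thresholds under all 14 alternative settings tried, with a size between 1.05 and 1.55, and was -1.17 without the third arrays.

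Other large subunit genes followed at a distance. Rpl4, which lines the exit tunnel, measured 10.54, 10.43 and 10.32 in starburst cells and 10.05, 9.77 and 9.50 in cones, a difference of -0.66 ± 0.14 (adjusted p = 0.00200). Rpl6 measured 10.88, 11.03 and 10.67 against 10.44, 10.28 and 10.19, a difference of -0.56 ± 0.11 (adjusted p = 0.00179). Rpl28 measured 10.50, 10.57 and 10.50 against 10.01, 10.09 and 9.99, a difference of -0.49 ± 0.10 (adjusted p = 0.00114). In each of these the arrays of both groups were separate, and the Rpl28 gap was well over the distance between its replicates. Rpl29 fell by 0.62, Rpl13 by 0.79 and Rpl8 by 0.37 on the log2 scale.

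Among small subunit genes, Rpsa, the laminin receptor protein that sits near the messenger RNA exit, measured 9.64, 9.61 and 9.53 in starburst cells and 9.21, 9.13 and 8.97 in cones. Its difference was -0.49 ± 0.14 (adjusted p = 0.0202). Rps3, at the messenger RNA entry, measured 9.91, 10.01 and 9.90 against 9.48, 9.62 and 8.99, a difference of -0.58 ± 0.16 (adjusted p = 0.0153). The third cone array was the lowest for both. Rps21 fell by 0.71 and Rps28 by 0.45, both near the threshold (adjusted p = 0.0413 and 0.0491). Rps21 lost the call on leaving out any single array of the pure starburst or cone groups and passed in 3 of 14 alternatives. The transcribed pseudogene Rps4l fell by 0.89, although its second cone array, 7.31, overlapped its second starburst array, 7.30.

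The count depended on single arrays. Without the third pure cone array 6 members were lower in cones, and without the first starburst array 7. Rpl13, Rps3, Rps4l, Rps21 and Rpsa no longer passed without the third cone array, at differences of -0.62, -0.39, -0.82, -0.69 and -0.42. Rpl8 and Rps28 were lost there as well, while Rpl10 then passed (-0.48). Rpl13, Rps4l and Rpsa were also lost without the first starburst array (-0.67, -0.82 and -0.46), Rps3 and Rpsa without the second (-0.54 and -0.48), and Rps4l without the third starburst or the first cone array (-0.76 and -0.72). Without the third array of every group 4 remained, Rpl14, Rpl29, Rpl6 and Rpl28. Rpl23 was the reverse case: its cone values were 9.97, 9.44 and 8.40 against 9.88 to 10.01 in starburst cells, and it passed both thresholds (-1.01) without the first cone array. Rps4l passed both without the second starburst array (-1.10) or the second cone array (-1.14).

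No member was shown to be higher in cones. Rpl10a, a large subunit protein, came nearest: it measured 10.59, 10.71 and 10.68 in cones and 10.55, 10.36 and 10.35 in starburst cells. The ranges were separate, but the difference of 0.24 ± 0.11 had an adjusted p of 0.166. Rps6 (0.16), Rps20 (0.17) and Rps29 (0.11), bright small subunit genes, had 95% intervals that included 0.

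**Figure D3:**
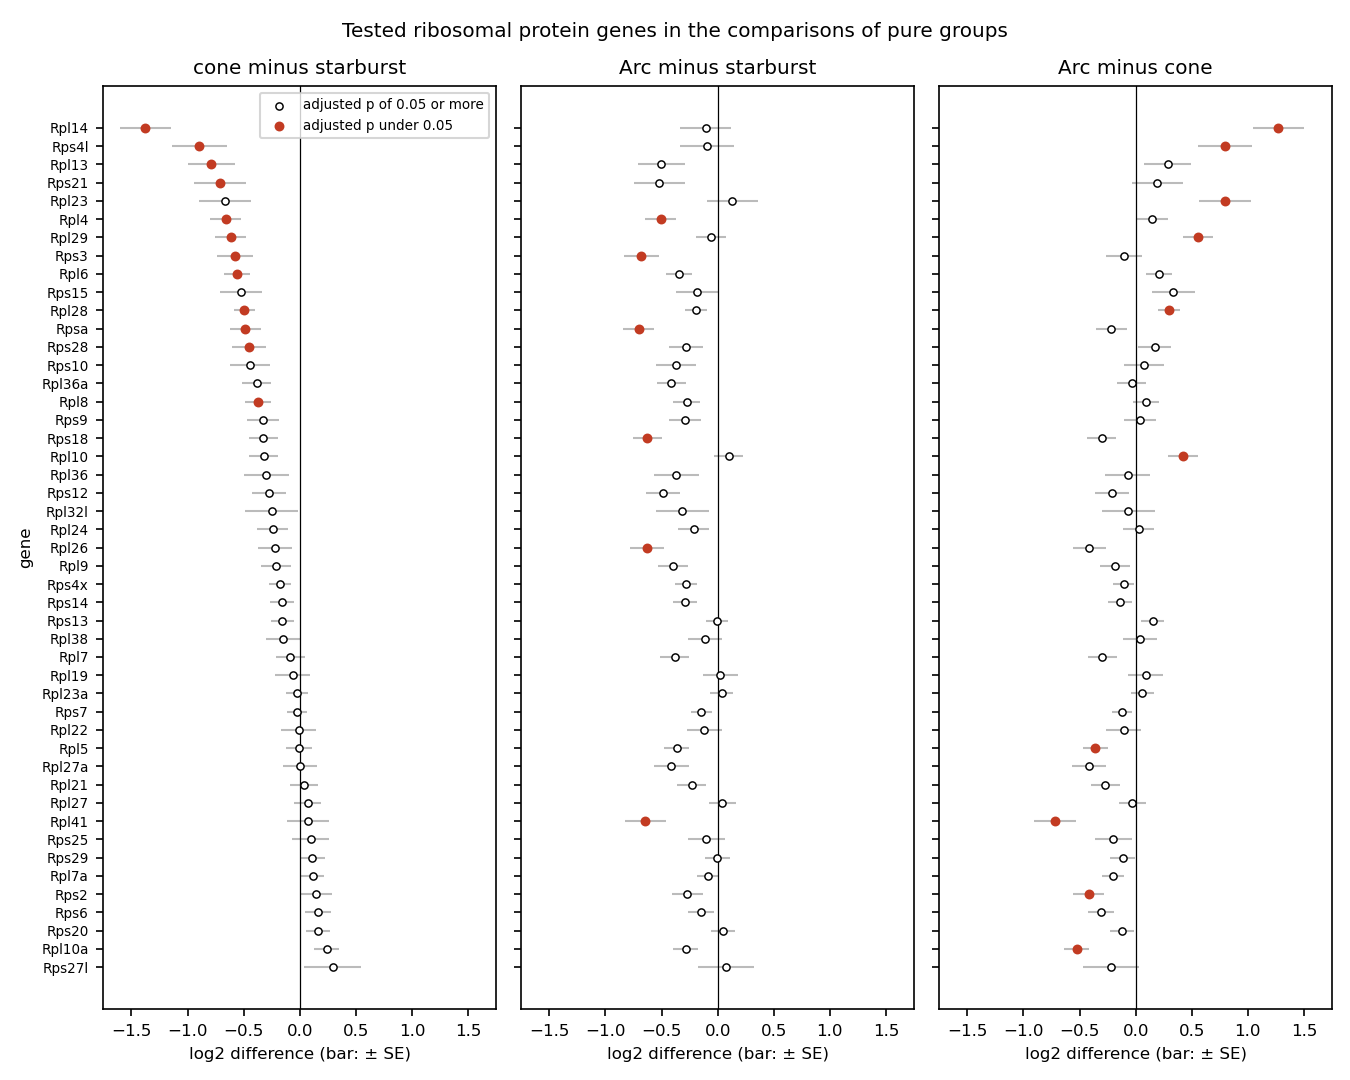
Log2 differences (horizontal axes, bars ± SE) of the 47 tested genes for cone minus starburst, Arc minus starburst and Arc minus cone, with genes in the order of the first panel; filled red points have an adjusted p under 0.05. In the first panel 12 points are filled, all left of 0 with Rpl14 at -1.38; in the second 6 are filled, all left of 0; in the third 6 lie right and 4 left.

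The second comparison sets Arc-EGFP amacrine cells against starburst amacrine cells. It shares the starburst arrays with the first, so the directions of the 2 comparisons are not independent. No member was called at both thresholds, beside 3.55% of all tested genes. By limma's adjusted p alone 6 members were lower in Arc cells and none higher, beside 2.24% and 3.5% of all tested genes. An unadjusted p under 0.05 was reached by 19 lower and 0 higher, again with no share of all tested genes counted. Arc arrays lay wholly below starburst arrays for 27 of 47 members, beside 10.5% of all tested genes, and wholly above for 0, beside 14.5%. The member median was -0.28, against 0.03 over all tested genes. Negative differences were found in 40 members, beside 5758 of the 12441 tested genes.

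Rpsa measured 8.94, 8.81 and 8.91 in Arc cells, against 9.53 to 9.64 in starburst cells. The difference was -0.70 ± 0.14 (adjusted p = 0.00209), and it passed under all 14 alternatives. Rps3 measured 9.38, 9.08 and 9.33, and was lower by 0.68 ± 0.16 than in starburst cells (adjusted p = 0.00895). Rps18, of the small subunit head, measured 9.69, 9.59 and 9.57 against 10.33, 10.19 and 10.21, a difference of -0.63 ± 0.13 (adjusted p = 0.00297). For each of these genes the Arc and starburst arrays were separate by more than the spread within either group.

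On the large subunit, Rpl26 measured 9.47, 9.80 and 9.70 in Arc cells and 10.30, 10.25 and 10.31 in starburst cells, a difference of -0.63 ± 0.15 (adjusted p = 0.0108). Rpl4 fell by 0.51 (adjusted p = 0.0294), a call lost without the first or the second starburst or the second or the third Arc array (-0.44 to -0.52). Rpl41, a very short basic protein, measured 8.46, 8.17 and 8.27 against 8.99, 9.02 and 8.83, a difference of -0.64 ± 0.19 (adjusted p = 0.0411). The call of Rpl41 was lost on leaving out any single starburst or Arc array, with adjusted p from 0.0213 to 0.160 over all alternatives. Without the second Arc array 3 members were lower, Rpsa, Rpl26 and Rps18, and without the third array of every group 2, Rpsa and Rps3. Centring each array on its median raised the count to 11.

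Rpl14, the gene with the largest cone difference, measured 8.17, 8.32 and 8.33 in Arc cells and overlapped the starburst arrays. Its Arc minus starburst difference was -0.10 ± 0.23, with a 95% interval from -0.58 to 0.36. Rps4l (-0.10) and Rpl29 (-0.06) likewise overlapped with starburst cells. The genes lower in both cones and Arc cells than in starburst cells by adjusted p were Rpl4, Rps3 and Rpsa, with the limit given above for Rpl4, both comparisons using the same starburst arrays.

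The third comparison, Arc cells against cones, shares its arrays with the other comparisons. It moved members both ways. Rpl14 was called, higher in Arc cells, beside 10.3% of all tested genes called in either direction. By adjusted p alone 6 members were higher in Arc cells and 4 lower, beside 13.3% higher and 4.45% lower of all tested genes. Arc arrays lay wholly below cone arrays for 15 members, beside 11.6%, and wholly above for 7, beside 22.6%. The member median was -0.07 against 0.07 over all tested genes.

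Rpl14 was higher in Arc cells by 1.27 ± 0.23 (adjusted p = 3.23e-04). The adjusted p stayed under 0.05 in all 14 alternatives, but the size fell under the log2 threshold of 1 with quantile normalization (0.93) and without the third arrays (0.99). Rpl29 was higher by 0.55, Rpl10, which completes the large subunit for translation, by 0.42, and Rpl28 by 0.30. Rpl10 lost the call without the first or the second cone or the first or the second Arc array (0.29 to 0.41). Rpl28 lost it without the first or the third array of either group (0.27 to 0.29). Rps4l and Rpl23 were each higher by 0.80. Rps4l passed in 6 of 14 alternatives and was lost without the first or the third cone array or the third Arc array (0.63, 0.73 and 0.67). For Rpl23 this rests on the third cone array at 8.40: without it the difference was 0.36 and did not pass, nor did it without the first Arc array (0.75).

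In the other direction Rpl41 was lower in Arc cells by 0.72 ± 0.19 (adjusted p = 0.00829), with cone arrays at 9.10, 8.98 and 8.97, and it passed under all 14 alternatives. Rpl10a measured 10.19, 10.14 and 10.07 in Arc cells and was lower than in cones by 0.53 ± 0.11 (adjusted p = 0.00160). Rps2 (-0.42) and Rpl5 (-0.36), the partner of the 5S ribosomal RNA, were also lower. Both lost the call without the third cone array, at -0.30 and -0.32, and again without the first or the second Arc array; Rps2 was lost also without the third Arc array (-0.38) and Rpl5 without the first cone array (-0.37). Leaving out the third cone array, 3 members were higher and 2 lower; leaving out the first cone array 3 were higher, and leaving out the first Arc array 3 were higher and 2 lower. Without the second Arc array 2 were lower. Without the third array of every group 3 were higher and 1 lower.

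The titration asks how the signal moves as cones replace starburst cells at a constant 200 cells. The slope over the 5 titration groups, expressed per change from 0 to 100% cones, was called for 1 member, Rpl14, beside 8.35% of all tested genes. By adjusted p alone 14 members fell and none rose, beside 12% falling and 4.9% rising of all tested genes. An unadjusted p under 0.05 was reached by 21 falling and 0 rising, with no share of all tested genes counted. The member median was -0.19. The pure groups of the first comparison are the ends of this series, so 11 of the 12 members lower in cones being among the 14 is no second piece of evidence. In mixed cells, fewer cells of a type and less RNA per cell cannot be told apart.

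Rpl6 fell over the series. It measured 10.88, 11.03 and 10.67 without cones, 11.02, 10.85 and 10.83 at 50 cones, 10.67, 10.64 and 10.57 at 100, 10.47, 10.61 and 10.43 at 150, and 10.44, 10.28 and 10.19 at 200. The arrays at 50 cones lay wholly above those at 100, the other neighbouring groups overlapped, and the ends were separate. The slope was -0.60 ± 0.10 (adjusted p = 2.28e-04) and passed under all 20 alternatives. Rpl4 (-0.62) did so too. Rpsa had a slope of -0.46 and Rpl28 of -0.41.

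Rpl14 moved otherwise over the same mixtures. It measured 8.16, 7.88 and 8.09 at 50 cones, 8.51, 8.11 and 8.0 at 100, and 7.50, 8.17 and 8.23 at 150, after 8.30 to 8.48 without cones. Only the pure cones, at 6.51 to 7.36, lay below all of these. The slope was -1.13 ± 0.20 (adjusted p = 3.68e-04). Without the third pure cone array it was -0.93, under the log2 threshold, so that no member was called. In the X mixtures Rpl14 measured 8.55, 8.34 and 8.21 with 75 cones, 7.73, 7.91 and 8.26 with 157 and 8.01, 7.30 and 7.83 with 183.

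Rps4l fell with a slope of -0.94 ± 0.22 (adjusted p = 0.00379). It passed the log2 threshold too without the second starburst array (-1.11), the second 50:150 array (-1.01) or the second cone array (-1.14). Rpl13 and Rps21 fell by 0.67 each, Rps15 by 0.59, Rpl29 by 0.53 and Rps3 by 0.51, with Rps9, Rpl36a and Rpl8 between 0.31 and 0.40. Rpl13 lost the call without the first starburst array (-0.58), and Rps15 without the second starburst or the first cone array (-0.51 and -0.53). Rps21 lost it without any of the first or the third starburst, the second 150:50, or the pure cone arrays (-0.61 to -0.69). Without the third pure cone array 8 members fell, and Rpl13, Rps15 and Rps3 no longer passed (-0.54, -0.50 and -0.36). Without the third array of every group 5 fell: Rpl14, Rpl4, Rpl6, Rpl29 and Rpsa.

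**Figure D4:**
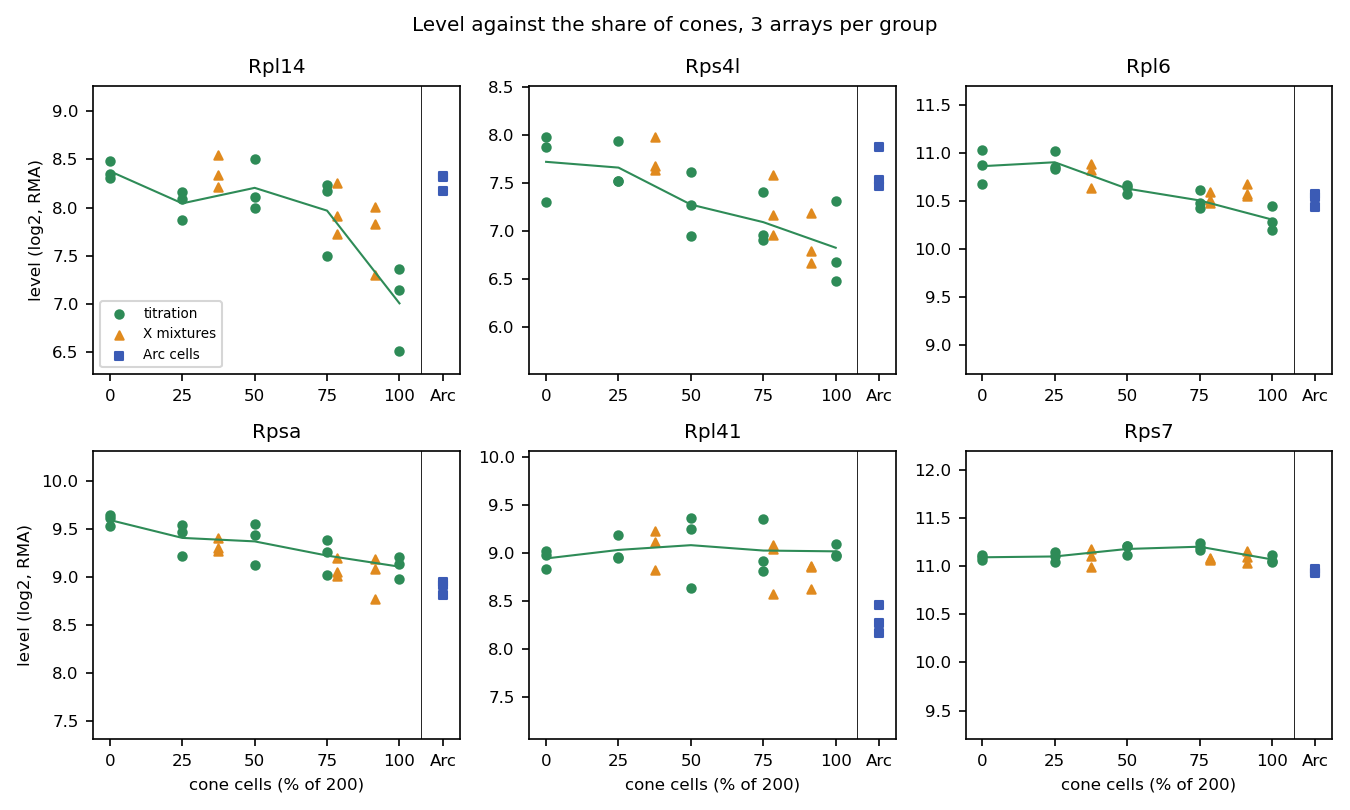
Log2 RMA values of 6 genes (vertical axes, each spanning the same log2 range) against the percentage of cones among 200 cells (horizontal axes); circles are titration arrays with a line through group means, triangles the X mixtures, squares Arc arrays, 3 arrays per group. For Rpl14 the pure cones, at 6.51 to 7.36, lie below all other titration arrays, while a 17:183 array reaches 7.30. Rpl6 declines toward the cone end, Rpl41 is low in Arc cells alone at 8.17 to 8.46, and Rps7 is level between 10.93 and 11.25.

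Departure from a straight line was tested as the mean of the 3 titration mixtures minus the mean of the pure ends. The line was straight on the log2 scale. Signals that add in proportion to the cells lie above such a line wherever the ends differ. The contrast therefore cannot decide whether amplification was linear. No member was called (limma), beside 0.37% of all tested genes, and none passed by adjusted p alone, beside 0.683%. An unadjusted p under 0.05, for which no share of all tested genes was counted, was reached by 3, all above the line. These were Rpl23 (0.41 ± 0.15), Rpl14 (0.38 ± 0.15) and Rpl29 (0.31 ± 0.09), with adjusted p of 0.381, 0.440 and 0.140. The member median was 0.06. Without the first pure cone array Rpl23 passed by adjusted p alone, at 0.58.

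The X mixtures were set against the line between their neighbours in the titration, also on the log2 scale and with the same limit. No member was called in any of them by limma, beside 0.0402% of all tested genes for 43:157, 0.00804% for 125:75 and 0.281% for 17:183. By adjusted p alone none passed either, beside 0.0402%, 0.00804% and 0.354%. An unadjusted p under 0.05 was reached by 5 members for 43:157, all below the line, by 0 for 125:75, and by 1 below and 2 above for 17:183. No share of all tested genes was counted for this threshold. The largest departure was that of Rpl27a in the 43:157 mixture, -0.66 ± 0.14 with an adjusted p of 0.120. Its arrays there measured 7.44, 7.53 and 7.53, below all pure cone (7.94 to 8.20) and 50:150 arrays (7.96 to 8.50). Rpl23 lay above the line in 17:183 by 0.59, and passed by adjusted p alone, at 0.82, without the first pure cone array.

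The summed picture per array followed the group means closely. The median over the 44 subunit genes was 9.89 to 9.92 on the starburst arrays, 9.49 to 9.61 on the cone arrays and 9.46 to 9.61 on the Arc arrays. The pure starburst arrays lay above the pure cone and the Arc arrays without overlap, while single mixture arrays reached higher, up to 9.94 on the first 100:100 array. The 26 large and 18 small subunit genes had like medians: -0.22 and -0.23 for cone minus starburst, and -0.25 and -0.28 for Arc minus starburst. By adjusted p alone, 7 large and 4 small subunit genes were lower in cones than in starburst cells, beside 9.69% of all tested genes. In Arc cells 3 of each were lower than in starburst cells, beside 2.24%.

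Where a gene had several probe sets, their differences were set side by side. Whether they read different RNA, or also copies of the gene elsewhere in the genome, was not tested. For 9 members 26 single-symbol probe sets were available. Their Arc minus starburst differences had a single sign in 9 of the 9 genes and the cone minus starburst differences in 7. Most members were negative anyway, 40 and 35 of the 47 tested, so a shared sign is a weak check. Rpl6 gave -0.56 and -0.54 for cone minus starburst, and Rpsa gave -0.89 and -0.49. For Rpl21, 8 probe sets ranged from -0.08 to 0.15 for cone minus starburst and from -0.46 to -0.20 for Arc minus starburst. Rps9 differed most between its probe sets, at -0.76 and -0.33.

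Other lists of the translation machinery are given beside the shares of all tested genes, and differences between lists were not tested. Of 76 tested mitochondrial ribosomal protein genes 5 were lower in cones than in starburst cells by adjusted p alone, beside 9.69% of all tested genes, with a median of -0.21, and Mrpl52 was lowest at -1.60. In Arc cells their median against starburst cells was 0.08, with 2 higher, where the cytosolic members had -0.28 and 6 lower. Against cones, 12 mitochondrial genes were higher in Arc cells (median 0.31), beside 13.3% of all tested genes. The mitochondrial counts are below or near the general share.

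Of 28 tested initiation factors 5 were lower in cones by adjusted p alone, beside 9.69% of all tested genes, with a median of -0.54. They included Eif4a2, the helicase that unwinds messenger RNA leaders (-1.87), Eif2s2, a subunit of the factor that brings the initiator tRNA (-1.66), and Eif6, which keeps the subunits apart (-1.15). In Arc cells the median of the initiation factors against starburst cells was -0.04. Of 11 tested elongation genes 3 were lower in cones: Eef1a2, the neuronal and muscle form of elongation factor 1A (-1.79), Eef2 (-0.75) and Eef1b2 (-0.65). Eef1a1, the common form, differed by -0.25 (adjusted p = 0.220). Tpt1, whose message also carries the pyrimidine tract, was lower in Arc than in starburst cells by 0.40 (adjusted p = 0.0298).

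Of 54 tested ribosome biogenesis genes 4 were lower in cones by adjusted p alone, beside 9.69% of all tested genes, and 2 higher in Arc than in starburst cells, beside 3.5%. The medians were -0.13 and 0.10, and neither count stood above the general share. Among 20 tested genes of the TOR pathway and of pyrimidine-tract and ribosome gene regulation, 2 were lower in cones, a share near that of all tested genes: Cnbp, a binder of pyrimidine-tract messages (-1.0), and Maf1, a repressor of RNA polymerase III (-1.10). In Arc cells Eif4ebp1, a repressor of the cap-binding protein Eif4e under mTOR control, was lower than in starburst cells (-1.06) and Mycn was higher (0.67). Fau, which encodes a small subunit protein fused to a ubiquitin-like domain and was left out by the naming rule, had a cone minus starburst difference of -0.60 (adjusted p = 0.0985).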

How the data were processed

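Each array held RNA of 200 sorted cells. Values were deposited as log2 signals; per the submitters' processing notes, RMA of the package oligo in R 2.11.1 was used and mm9 is named. Probe sets were named through the platform annotation: of 22347, 19446 had 1 symbol, 735 several and 2166 none. From the deposited log2 values, limma 3.58.1 in R 4.3.3 fitted 1 mean per group over all 27 arrays (lmFit, eBayes), with Benjamini-Hochberg adjustment over 12441 tested genes. Genes were called at an adjusted p under 0.05 and an absolute log2 difference of at least 1, with a further count by adjusted p alone. The number of arrays limits the precision. The fit was tested on simulated data. The members and lists were chosen with earlier results of these data known. Members named are those called, up to 10 by adjusted p alone in each direction of a comparison, and those highest and lowest in mean and SD; Rps20, Rps29, Rps6, Rpl21, Rps9, Rpl27a, Rpl8, Rpl36a and Rps28 were picked with their values in view.

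The submitters' design text gives the replicate numbers of the titration as 3 sorts from different mice, which pairs same-numbered titration arrays. Their deviations from group means correlated at -0.03 to 0.23 (3 of 30 pairs over 0.1). The main fit had no block, and the blocked fit was an alternative. Alternatives covered the filter, probe sets, prior variance, scaling, replicate block, arrays included and left-out arrays. Promoter sequences came from RefSeq GRCm38.p6; proteins and other genomic sequence were not used here.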

Additional observations from a re-analysis of the deposited data

How the results depend on the processing

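No result reversed under any alternative. With the replicate number as a block (replicate block, the pairing of the sorts), 13 members were lower in cones, Rpl36a and Rps15 joining and 1 of the 12 being lost, and 13 had a falling slope, and no count moved by over 1.5 times. Without the filter, Rpl3l passed by adjusted p alone for cone minus starburst (1 higher) and for the slope (1 higher). With an intensity trend in the prior variance 13 members were lower in Arc than in starburst cells. Centring each array on its median gave 11 for that count, 9 lower and 3 higher for Arc minus cone, and a member median of -0.16 there. Quantile normalization gave 7 lower in cones, 7 falling slopes with 0 called, 0 called and 2 higher for Arc minus cone with a median of -0.18, a median of -0.00116 for the 43:157 mixture, and 10 in the F test. Fitted on only the arrays compared, 2 were lower in cones, and 2 lower and 1 higher for Arc minus cone. Without the third arrays 4 were lower in cones and 2 in Arc than in starburst cells. Arc minus cone then had 0 called, 1 lower and 3 higher, the slope 5 falling, and the F test 1. Fits with fewer arrays have less power, and their shares of all tested genes were not counted.

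Leaving out single arrays gave 6 to 11 members lower in cones with 1 to 2 called, 3 to 6 lower in Arc than in starburst cells, 3 to 5 higher and 2 to 4 lower for Arc minus cone with 1 to 2 called, 8 to 14 falling slopes with 0 to 2 called, and 0 to 1 by adjusted p alone for the mixtures and for 17:183. Of the values of single genes, 441 kept their side of the threshold and 123 lost it; the cause was not tested. With 3 arrays per group, a difference that missed the threshold is not shown to be absent.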
